A study of Mus musculus with 12 samples.

Results

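The 43 genes described here encode the transporters and enzymes of glycolysis, the pentose phosphate pathway and the tricarboxylic acid (TCA) cycle. They were listed by symbol, and no measured value enters the rule. Of them 38 had a probe set annotated to that gene alone among the 22180 genes measured this way, and for a gene with several probe sets the brightest was used. Gpi1, Eno1 and G6pdx had no row under their name, and Aldoa and Tkt were annotated only on rows shared with another gene, so these 5 have no value here. These are the hexose isomerase, the main aldolase and enolase, glucose 6-phosphate dehydrogenase and transketolase. For the aldolase, enolase, first pentose phosphate and transketolase steps, other isoenzymes were measured and are counted with the further genes of the pathways.

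Levels were measured on Affymetrix mouse arrays. The cells were splenic regulatory T cells (Treg), purified by flow cytometric sorting from DEREG mice, which carry a diphtheria toxin (DTx) receptor under the control of Foxp3 so that DTx depletes their Treg. All mice were sensitized to ovalbumin and then challenged with it, a model of allergic airways disease. The iTreg group came from mice depleted of endogenous Treg with DTx (40 ng/g) and given intravenous immunoglobulin (IVIg, 2 g/kg), a pooled IgG preparation, and the labels call these cells IVIg-induced. The e_iTreg arrays are from mice that had the same IVIg dose but no DTx, and this group holds endogenous and induced Treg together. For eTreg the mice had received human serum albumin (2 g/kg) as a control protein, again no DTx, and the group holds endogenous Treg. That DTx went to the iTreg mice alone is taken from the series design, since the growth protocol is worded alike for every sample. Each group had 4 arrays, described as biological replicates, so p-values measure the spread between those samples. DTx and IVIg cannot be told apart between iTreg and eTreg. The labels used here do not give the age or sex of the mice or whether animals were pooled.

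Foxp3, the lineage factor of Treg, was at 12.17 ± 0.25 in iTreg, 12.30 ± 0.21 in e_iTreg and 12.46 ± 0.09 in eTreg (mean log2 level ± SD, n = 4 arrays each), with no difference past the threshold. Levels throughout are the deposited log2 values of a probe set, and a level is compared between groups for 1 gene. Where the levels of a pair of genes are subtracted within an array, only the shift of that difference between groups is read, since the difference itself depends on both probe sets. Differences are log2 differences ± SE from a limma fit to all 12 arrays, and a gene is said to have risen or fallen where its p-value, adjusted by Benjamini-Hochberg over all 23521 rows tested, was under 0.05. Some arrays stood apart. The B cell markers were lowest in e_iTreg replicate 4 and eTreg replicates 4 and 3. In each group 1 array carried the signal of 1 sex (iTreg replicate 4, e_iTreg replicate 4 and eTreg replicate 3), while the others carried both Xist and Y-linked signal. In sorted bulk samples, more or fewer cells of a type and more or less RNA per cell cannot be told apart.

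Glycolysis takes glucose in through membrane transporters, phosphorylates it, splits it into 3-carbon sugars and turns those into pyruvate with a gain of ATP. Pyruvate is either reduced to lactate or enters the mitochondrion, where pyruvate dehydrogenase, held in check by its kinases, feeds the TCA cycle. The pentose phosphate pathway branches off to make NADPH and ribose for nucleotides. Activated effector T cells are known for high aerobic glycolysis, whereas resting Treg are known to depend more on mitochondrial oxidation.

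Some of the enzymes passed the threshold and others did not. A gene that did not pass is not thereby shown to be unchanged. In iTreg minus eTreg 16 of the 38 measured genes rose and 3 fell, against 5.36% of all rows tested that rose and 4.63% that fell. In iTreg minus e_iTreg 14 rose and 2 fell, against 6.49% and 4.75% of all rows. These comparisons share the iTreg arrays. The median difference over the 38 genes was 0.29 in iTreg minus eTreg, where the median over all rows was -0.01, and 0.22 in iTreg minus e_iTreg, where it was -0.07. In e_iTreg minus eTreg none of the 38 passed limma's test, as none of all rows did (0%). An unadjusted p under 0.05 was reached by 2 of the 38, Pdk1 and Pdhb. Of all 23521 rows, 1065 were higher and 584 lower at that rule. The 4 iTreg arrays lay above all 8 others for 14 of the 38 genes (36.8%) and below them for 1, Ldhb (2.63%), against 5.08% and 4.19% of all rows.

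The counts depended on which arrays were kept. With the 3 arrays of lowest B cell marker level left out (2 eTreg arrays remain), Tpi1 and Pgam1 were the 2 of 38 genes that rose in iTreg minus eTreg and none fell, against 0.897% and 0.804% of all rows, and the median difference of the 38 was 0.20. In that setting Tpi1 was at 1.16 ± 0.20 (adjusted p = 0.0218), Pgk1 at 0.81 ± 0.19 (adjusted p = 0.0546) and Taldo1 at 0.61 ± 0.14 (adjusted p = 0.0506). In iTreg minus e_iTreg 9 rose and 1 fell, against 3.75% and 2.02% of all rows. Without the 3 arrays that carried the signal of 1 sex, 6 genes rose and 0 fell in iTreg minus eTreg, against 2.93% and 2.02% of all rows, and 8 rose and 0 fell in iTreg minus e_iTreg, against 3.18% and 1.37%.

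**Figure D1:**
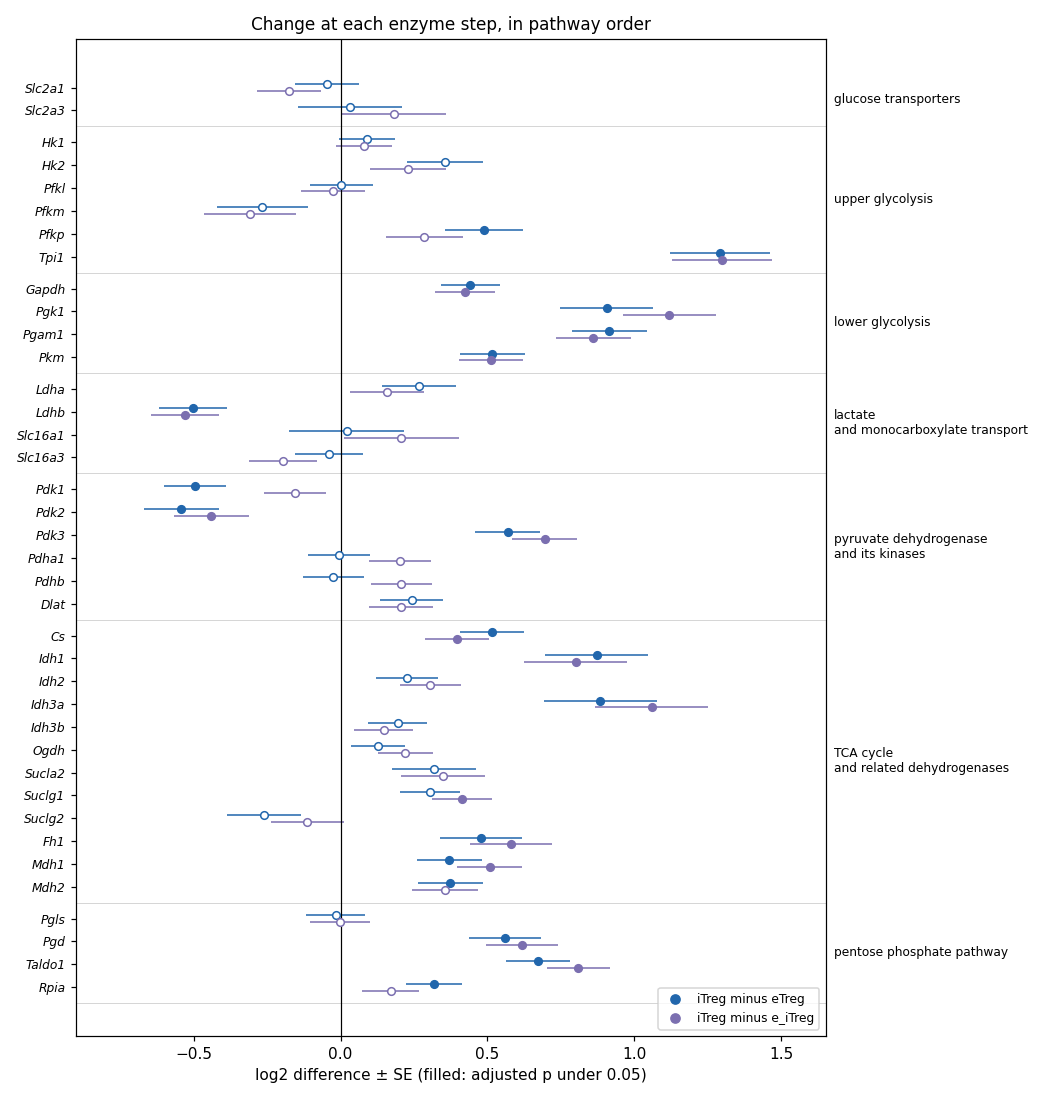
Log2 difference ± SE at each measured enzyme step in pathway order, for iTreg minus eTreg (blue) and iTreg minus e_iTreg (purple), with n = 4 arrays per group. Filled points passed an adjusted p of 0.05. Tpi1, at 1.29 and 1.30, lies farthest right, and Ldhb, Pdk1 and Pdk2 are the filled points left of 0.

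At glucose entry and the first committed steps few genes passed the threshold. Slc2a1, the main glucose transporter of T cells, had log2 levels of 10.64, 10.45, 10.41 and 10.34 in iTreg, against 10.53, 10.56, 10.77 and 10.69 in e_iTreg and 10.45, 10.62, 10.69 and 10.28 in eTreg. The groups overlapped, and Slc2a1 differed by -0.05 ± 0.11 in iTreg minus eTreg, with a 95% interval of -0.28 to 0.19. Slc2a3, a high-affinity glucose transporter, differed by 0.03 ± 0.18, with an interval of -0.35 to 0.41. Neither passed in any comparison.

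The hexokinases, which trap glucose as glucose 6-phosphate, did not pass either. Hk2, the inducible form, ranged over 6.82 to 7.35 in iTreg, 6.64 to 7.03 in e_iTreg and 6.53 to 6.91 in eTreg, and its difference was 0.36 ± 0.13 (adjusted p = 0.107) in iTreg minus eTreg. Hk1, the constitutive form, differed by 0.09 ± 0.10, with an interval of -0.11 to 0.29. Of the 3 phosphofructokinase genes, which encode the subunits of the main control step, Pfkp rose in iTreg against eTreg, by 0.49 ± 0.13 (adjusted p = 0.0292), with levels of 10.31 to 10.82 in iTreg, 10.15 to 10.42 in e_iTreg and 9.70 to 10.22 in eTreg. Its difference in iTreg minus e_iTreg was 0.29 ± 0.13 (adjusted p = 0.187). Pfkl was at 0.00 ± 0.11 and Pfkm at -0.27 ± 0.16 in iTreg minus eTreg, neither past the threshold. The Pfkp call was lost without eTreg replicate 2 or 4 or iTreg replicate 3 or 4, with an adjusted p of up to 0.0914.

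The largest rise among the 38 genes was at the step that interconverts the 3-carbon sugars. Tpi1, triosephosphate isomerase, had log2 levels of 10.66, 10.19, 10.60 and 10.68 in iTreg, against 9.15, 9.67, 9.19 and 8.92 in e_iTreg and 9.61, 9.13, 9.26 and 8.95 in eTreg. All 4 iTreg arrays stood above the other 8, the lowest of them being replicate 2. Tpi1 rose by 1.29 ± 0.17 (adjusted p = 0.000662), or 2.45-fold, in iTreg minus eTreg and by 1.30 ± 0.17 (adjusted p = 0.000828) in iTreg minus e_iTreg.

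Of the listed enzymes of the later, ATP-yielding steps of glycolysis, the 4 with a value, Gapdh, Pgk1, Pgam1 and Pkm, rose in both comparisons. Of all rows 5.36% rose against eTreg and 6.49% against e_iTreg. Other isoenzymes of these steps did not rise: Pgam2, the muscle-type mutase, was at -0.05 ± 0.14 and Pklr, the liver and red cell pyruvate kinase, at -0.15 ± 0.11 against eTreg, neither past the threshold, and the enolases Eno2 and Eno3 are given with the further genes. Gapdh, which oxidises glyceraldehyde 3-phosphate, was the smallest of these, with levels of 12.31 to 12.45 in iTreg, 11.82 to 12.14 in e_iTreg and 11.80 to 12.13 in eTreg. It rose by 0.44 ± 0.10 (adjusted p = 0.0119) against eTreg and by 0.42 ± 0.10 (adjusted p = 0.015) against e_iTreg. Of its 2 dimmer probe sets 1 rose against eTreg, by 0.43 (adjusted p = 0.0158), and the other was at 0.57 (adjusted p = 0.0535). Against e_iTreg the first rose by 0.37 (adjusted p = 0.0336) and the other was at 0.22 (adjusted p = 0.457). The Gapdh call against e_iTreg was lost with the mean of its probe sets. The annotation also has 8 rows shared between Gapdh and another gene symbol, so near-identical copies may share its signal and the Gapdh values are uncertain in that respect.

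Pgk1, phosphoglycerate kinase, which makes the first ATP, had levels of 9.41, 9.30, 9.43 and 9.52 in iTreg, against 8.24, 8.84, 8.04 and 8.06 in e_iTreg and 8.75, 8.47, 8.57 and 8.26 in eTreg. The iTreg arrays lay above all others, with e_iTreg replicate 2 and eTreg replicate 1 nearest to them. Pgk1 rose by 0.91 ± 0.16 (adjusted p = 0.00263) in iTreg minus eTreg and 1.12 ± 0.16 (adjusted p = 0.00101) in iTreg minus e_iTreg.

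Pgam1, phosphoglycerate mutase, had levels of 9.81, 9.39, 9.83 and 9.66 in iTreg, against 8.71, 9.01, 8.88 and 8.66 in e_iTreg and 9.01, 8.78, 8.56 and 8.70 in eTreg. Again no iTreg array reached down to the others. Pgam1 rose by 0.91 ± 0.13 (adjusted p = 0.000947) in iTreg minus eTreg and 0.86 ± 0.13 (adjusted p = 0.00121) in iTreg minus e_iTreg, and its dimmer probe set rose too, by 0.58 and 0.55. Pkm, the pyruvate kinase that makes the second ATP, had levels of 11.17, 10.84, 11.18 and 11.26 in iTreg, against 10.65, 10.80, 10.48 and 10.49 in e_iTreg and 10.69, 10.58, 10.58 and 10.55 in eTreg. It rose by 0.52 ± 0.11 (adjusted p = 0.0073) against eTreg and 0.51 ± 0.11 (adjusted p = 0.00782) against e_iTreg, and iTreg replicate 2, at 10.84, lay close to e_iTreg replicate 2, at 10.80.

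**Figure D2:**
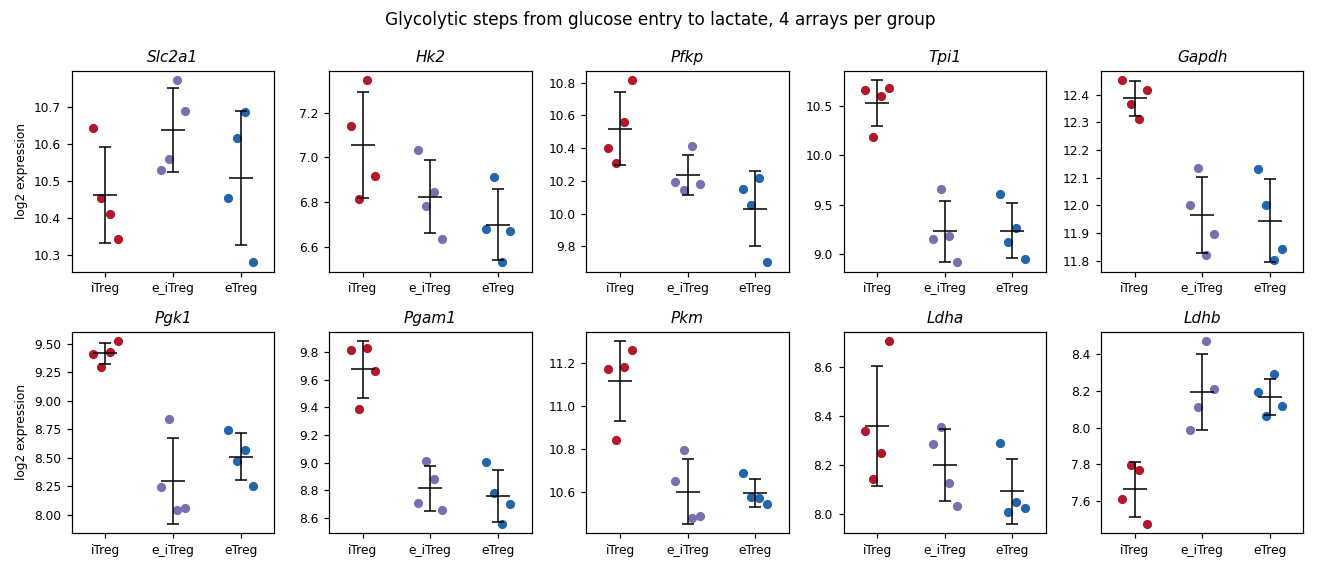
Log2 expression of 10 glycolytic genes in each array (points) with the group mean ± SD (bars), n = 4 arrays per group, each panel with its own axis that does not start at 0. Tpi1, Gapdh, Pgk1, Pgam1 and Pkm have all iTreg arrays above the others, Ldhb has them below, and Slc2a1, Hk2, Pfkp and Ldha overlap.

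The promoters of the members with the largest rises that the sequence table holds, and of Pdk2, the member with the largest fall, are printed because many glycolytic genes are known targets of hypoxia-inducible factor, whose element holds ACGTG, and of Myc, which binds CACGTG. Each is the 250 bases before the start site, from RefSeq on GRCm38.p6, 5′ to 3′ on the gene's strand, with ACGTG (on either strand, CACGTG included) in capitals.
Tpi1, chr6:124814159-124814408, minus strand: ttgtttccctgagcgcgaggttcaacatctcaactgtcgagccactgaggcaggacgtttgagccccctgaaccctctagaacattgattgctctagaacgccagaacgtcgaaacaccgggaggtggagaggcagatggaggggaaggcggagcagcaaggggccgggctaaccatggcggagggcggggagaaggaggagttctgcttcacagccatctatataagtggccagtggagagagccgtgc
Pgam1, chr19:41911621-41911870, plus strand: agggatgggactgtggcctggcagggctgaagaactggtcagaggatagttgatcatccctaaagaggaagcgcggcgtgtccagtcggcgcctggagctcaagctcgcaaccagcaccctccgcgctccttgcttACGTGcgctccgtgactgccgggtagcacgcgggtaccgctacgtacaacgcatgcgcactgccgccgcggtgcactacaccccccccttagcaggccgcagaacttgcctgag
Pgk1, chrX:106186850-106187099, plus strand: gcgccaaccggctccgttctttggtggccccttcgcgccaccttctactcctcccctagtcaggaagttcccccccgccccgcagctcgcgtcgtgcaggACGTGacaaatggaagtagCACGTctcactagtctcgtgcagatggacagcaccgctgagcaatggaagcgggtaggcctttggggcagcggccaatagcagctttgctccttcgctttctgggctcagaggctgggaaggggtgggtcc
Pdk2, chr11:95041372-95041621, minus strand: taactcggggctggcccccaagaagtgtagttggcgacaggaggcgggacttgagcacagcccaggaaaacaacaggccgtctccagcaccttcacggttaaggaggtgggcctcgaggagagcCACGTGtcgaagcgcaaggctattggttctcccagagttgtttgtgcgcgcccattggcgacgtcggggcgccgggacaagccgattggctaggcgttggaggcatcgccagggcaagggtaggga

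The Tpi1 window holds no ACGTG, the Pgam1 window holds 1 and the Pgk1 window 2, while the Pdk2 window holds a CACGTG, which contains ACGTG on both strands. In the RefSeq set of 27025 promoters of this length, 1 per gene and with chromosome 18 left out, 16.6% held ACGTG and 6.05% held CACGTG. Of the 36 measured members with a promoter in it, 13 held ACGTG and 4 held CACGTG. Among the 15 of them that rose in iTreg minus eTreg these counts were 4 and 0, and among the 18 that did not pass they were 8 and 3. A match describes the letters only.

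At the lactate end of the pathway Ldhb fell and Ldha did not pass. Whether Ldha differed from the lower enzymes in its change was not tested. Ldha, the lactate dehydrogenase subunit that favours making lactate, had levels of 8.34, 8.14, 8.25 and 8.71 in iTreg, against 8.29, 8.35, 8.12 and 8.03 in e_iTreg and 8.29, 8.01, 8.05 and 8.02 in eTreg. Its groups overlapped, and it differed by 0.27 ± 0.13 (adjusted p = 0.233) in iTreg minus eTreg. Ldhb, the subunit known for favouring lactate oxidation, had levels of 7.61, 7.79, 7.77 and 7.48 in iTreg, against 7.99, 8.11, 8.47 and 8.21 in e_iTreg and 8.19, 8.06, 8.29 and 8.12 in eTreg. All 4 iTreg arrays lay below the other 8, and Ldhb fell by 0.50 ± 0.12 (adjusted p = 0.0117) in iTreg minus eTreg and by 0.53 ± 0.12 (adjusted p = 0.00865) in iTreg minus e_iTreg.

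Within each array, Ldha minus Ldhb was 0.35 to 1.23 in iTreg, -0.35 to 0.30 in e_iTreg and -0.24 to 0.10 in eTreg. The shift of this difference was 0.77 in iTreg minus eTreg (p = 0.0286, adjusted p = 0.105, exact permutation test, two-sided) and 0.69 in iTreg minus e_iTreg (p = 0.0286, adjusted p = 0.105, exact permutation test). It was not past the threshold after adjustment over 48 comparisons of 16 pairs of isoenzymes or partner subunits. With 4 arrays against 4 there are 70 splits, and 0.0286 is the smallest p they allow. Of the 48 comparisons 13 reached it, fewer than would be needed for any to pass after adjustment. The lactate and pyruvate transporters Slc16a1 and Slc16a3 did not pass, with differences of 0.02 ± 0.20 and -0.04 ± 0.12 in iTreg minus eTreg.

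At the gate to the mitochondrion stand the pyruvate dehydrogenase kinases, which switch the enzyme off by phosphorylation. Of the 4 measured, Pdk3 rose, Pdk1 and Pdk2 fell, and Pdk4, from the list of further genes, was at -0.03 ± 0.09 (adjusted p = 0.925) in iTreg minus eTreg and 0.04 ± 0.09 (adjusted p = 0.832) in iTreg minus e_iTreg. Pdk3 had levels of 8.79, 8.78, 8.94 and 8.74 in iTreg, against 8.21, 8.32, 7.89 and 8.05 in e_iTreg and 8.45, 8.17, 8.25 and 8.10 in eTreg. The iTreg arrays lay above all others, and Pdk3 rose by 0.57 ± 0.11 (adjusted p = 0.0048) in iTreg minus eTreg and 0.69 ± 0.11 (adjusted p = 0.00175) in iTreg minus e_iTreg. Pdk2 had levels of 7.04, 7.45, 7.04 and 6.95 in iTreg, against 7.39, 7.61, 7.55 and 7.69 in e_iTreg and 7.62, 7.52, 7.95 and 7.56 in eTreg. It fell by 0.54 ± 0.13 (adjusted p = 0.0135) in iTreg minus eTreg and by 0.44 ± 0.13 (adjusted p = 0.0374) in iTreg minus e_iTreg, with iTreg replicate 2, at 7.45, above e_iTreg replicate 1, at 7.39. The Pdk2 call against e_iTreg was lost in 14 of 28 alternatives, among them median centring and leaving out any of 6 single arrays (e_iTreg replicates 2, 3 and 4 and iTreg replicates 1, 3 and 4), with an adjusted p of up to 0.103 in these. Its call against eTreg was lost without eTreg replicate 3 (adjusted p = 0.0501).

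Pdk1 ranged over 7.50 to 7.87 in iTreg, 7.68 to 7.90 in e_iTreg and 7.97 to 8.30 in eTreg. It fell by 0.49 ± 0.11 (adjusted p = 0.00827) in iTreg minus eTreg and was at -0.16 ± 0.11 (adjusted p = 0.369) in iTreg minus e_iTreg. The e_iTreg arrays lay between the other groups in the mean and all below the eTreg arrays, with a difference of -0.34 ± 0.11 (adjusted p = 0.704) in e_iTreg minus eTreg. Pdk2 minus Pdk3 within each array was -1.90 to -1.34 in iTreg, -0.82 to -0.35 in e_iTreg and -0.83 to -0.30 in eTreg, a shift of -1.11 in iTreg minus eTreg (p = 0.0286, adjusted p = 0.105, exact permutation test). Pdk1 minus Pdk3 shifted by -1.06 (p = 0.0286, adjusted p = 0.105, exact permutation test). Of the subunits of the enzyme complex, Pdha1, Pdhb and Dlat did not pass in any comparison. In iTreg minus eTreg they differed by -0.01 ± 0.11, -0.02 ± 0.11 and 0.24 ± 0.11. Pdhx, a further subunit outside the 43 genes, rose by 0.41 ± 0.09 (adjusted p = 0.0113) in iTreg minus e_iTreg and was at 0.19 ± 0.09 (adjusted p = 0.256) in iTreg minus eTreg.

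**Figure D3:**
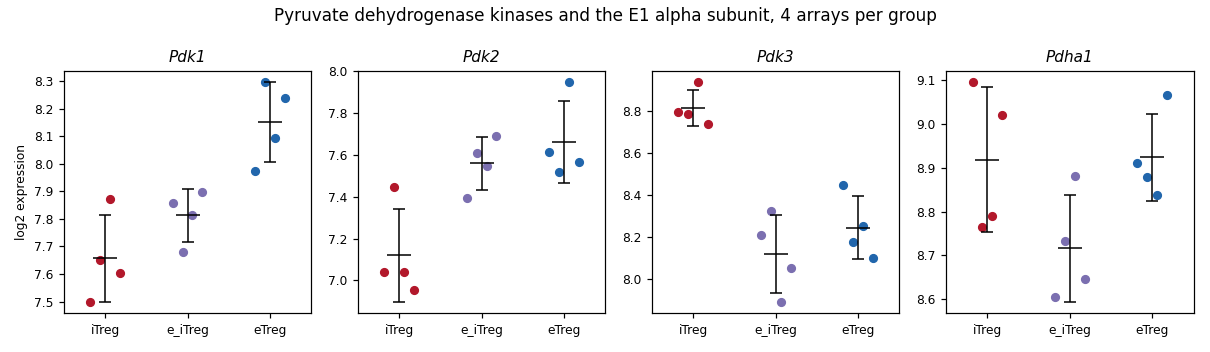
Log2 expression of Pdk1, Pdk2 and Pdk3, 3 of the 4 measured pyruvate dehydrogenase kinases, and of Pdha1, the E1 alpha subunit they phosphorylate, in each array (points) with group mean ± SD (bars), n = 4 arrays per group, each panel with its own axis that does not start at 0. Pdk3 is above all other arrays in iTreg, Pdk1 and Pdk2 have their lowest group means there, and Pdha1 overlaps.

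In the TCA cycle and its cytosolic counterparts 6 of 12 genes (50%) rose and none fell in iTreg minus eTreg, against 5.36% and 4.63% of all rows. Likewise 6 of 12 rose and none fell in iTreg minus e_iTreg, against 6.49% and 4.75% of all rows. Cs, citrate synthase, which brings acetyl groups into the cycle, had levels of 9.99, 9.69, 10.08 and 10.04 in iTreg, against 9.40, 9.54, 9.75 and 9.53 in e_iTreg and 9.57, 9.42, 9.44 and 9.32 in eTreg. It rose by 0.51 ± 0.11 (adjusted p = 0.00772) against eTreg and 0.40 ± 0.11 (adjusted p = 0.0301) against e_iTreg, although iTreg replicate 2, at 9.69, was below e_iTreg replicate 3, at 9.75. The Cs call against e_iTreg was lost in 13 of 28 alternatives, among them quantile normalization and leaving out any of 6 single arrays (e_iTreg replicates 1, 2 and 4 and iTreg replicates 1, 3 and 4), with an adjusted p of up to 0.0928 in these.

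Idh3a, the catalytic subunit of the NAD-dependent isocitrate dehydrogenase of the cycle, had the largest change of this group. Its levels were 9.24, 8.47, 9.12 and 9.002 in iTreg, against 7.63, 8.45, 7.58 and 7.92 in e_iTreg and 8.29, 8.13, 7.87 and 7.99 in eTreg. iTreg replicate 2 and e_iTreg replicate 2 lay next to each other, at 8.47 and 8.45, and the other iTreg arrays far higher. Idh3a rose by 0.88 ± 0.19 (adjusted p = 0.00878) in iTreg minus eTreg and by 1.06 ± 0.19 (adjusted p = 0.00336) in iTreg minus e_iTreg. Its partner subunit Idh3b was at 0.19 ± 0.10 in iTreg minus eTreg and did not pass. Idh3a minus Idh3b shifted by 0.69 in that comparison (p = 0.0286, adjusted p = 0.105, exact permutation test).

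Among the NADP-dependent isocitrate dehydrogenases, which supply NADPH, the cytosolic Idh1 had levels of 7.24, 7.98, 7.63 and 8.01 in iTreg, against 6.74, 7.14, 7.07 and 6.71 in e_iTreg and 7.15, 6.79, 6.91 and 6.53 in eTreg. The iTreg arrays spread over 0.77 log2 units but lay above all others. Idh1 rose by 0.87 ± 0.18 (adjusted p = 0.00567) and 0.80 ± 0.18 (adjusted p = 0.00914), while the mitochondrial Idh2 was at 0.23 ± 0.11 (adjusted p = 0.222) and 0.31 ± 0.11 (adjusted p = 0.0756), against eTreg and against e_iTreg.

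Later in the cycle Fh1, fumarase, had levels of 8.84, 8.98, 9.19 and 8.74 in iTreg, against 8.49, 8.60, 8.12 and 8.23 in e_iTreg and 8.71, 8.54, 8.19 and 8.42 in eTreg. It rose by 0.48 ± 0.14 (adjusted p = 0.0418) in iTreg minus eTreg and 0.58 ± 0.14 (adjusted p = 0.0152) in iTreg minus e_iTreg, the second call with an adjusted p of up to 0.0519 when single arrays were left out. Mdh1, the cytosolic malate dehydrogenase of the malate-aspartate shuttle, had levels of 10.40, 10.60, 10.28 and 10.35 in iTreg, against 9.84, 10.10, 9.89 and 9.77 in e_iTreg and 10.23, 9.96, 10.11 and 9.86 in eTreg. It rose by 0.37 ± 0.11 (adjusted p = 0.0473) against eTreg and 0.51 ± 0.11 (adjusted p = 0.00901) against e_iTreg. Mdh2, the mitochondrial form, rose by 0.37 ± 0.11 (adjusted p = 0.0456) in iTreg minus eTreg and was at 0.36 ± 0.11 (adjusted p = 0.0533) in iTreg minus e_iTreg, with levels of 10.96 to 11.18 in iTreg, 10.57 to 10.87 in e_iTreg and 10.43 to 10.90 in eTreg. The calls of Fh1, Mdh1 and Mdh2 against eTreg lay near the threshold and were lost without single arrays, with an adjusted p of up to 0.14, 0.141 and 0.14.

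Of the listed genes for the steps from 2-oxoglutarate to succinate, 1 of 4 passed, against e_iTreg. Ogdh, a subunit of the 2-oxoglutarate dehydrogenase complex, was at 0.13 ± 0.09 (adjusted p = 0.498) in iTreg minus eTreg. Of the succinyl-CoA synthetase genes, Suclg1, the subunit shared by both forms of the enzyme, rose against e_iTreg, by 0.41 ± 0.10 (adjusted p = 0.0175), and was at 0.31 ± 0.10 (adjusted p = 0.0771) against eTreg. The ATP-forming Sucla2 was at 0.32 ± 0.14 and the GTP-forming Suclg2 at -0.26 ± 0.13 in iTreg minus eTreg, neither past the threshold. Sucla2 minus Suclg2 was 0.07 to 0.45 in iTreg and -0.42 to -0.14 in eTreg, a shift of 0.58 (p = 0.0286, adjusted p = 0.105, exact permutation test).

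Of the 4 measured pentose phosphate genes 3 rose against eTreg and 2 against e_iTreg (75% and 50%, against 5.36% and 6.49% of all rows). Pgd, 6-phosphogluconate dehydrogenase, which makes NADPH in the oxidative branch, had levels of 9.47, 9.15, 9.43 and 9.69 in iTreg, against 8.87, 8.85, 8.96 and 8.59 in e_iTreg and 8.96, 8.92, 8.66 and 8.95 in eTreg. It rose by 0.56 ± 0.12 (adjusted p = 0.0096) against eTreg and 0.62 ± 0.12 (adjusted p = 0.00547) against e_iTreg. Taldo1, transaldolase of the branch that links pentoses to glycolysis, had levels of 9.997, 9.88, 10.08 and 10.17 in iTreg, against 9.12, 9.47, 9.22 and 9.09 in e_iTreg and 9.51, 9.33, 9.22 and 9.38 in eTreg. All iTreg arrays were above the others, and Taldo1 rose by 0.67 ± 0.11 (adjusted p = 0.00194) in iTreg minus eTreg and 0.81 ± 0.11 (adjusted p = 0.00086) in iTreg minus e_iTreg.

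Rpia, ribose 5-phosphate isomerase, rose by 0.32 ± 0.10 (adjusted p = 0.0496) in iTreg minus eTreg and was at 0.17 ± 0.10 (adjusted p = 0.278) in iTreg minus e_iTreg. Its iTreg arrays lay within 6.82 to 6.87, and its call against eTreg was lost without any single iTreg array, without eTreg replicate 2, 3 or 4 and without e_iTreg replicate 1 or 2 (adjusted p up to 0.14). Pgls, the lactonase between the oxidative steps, was at -0.02 ± 0.10 against eTreg and 0.00 ± 0.10 against e_iTreg, not past the threshold.

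**Figure D4:**
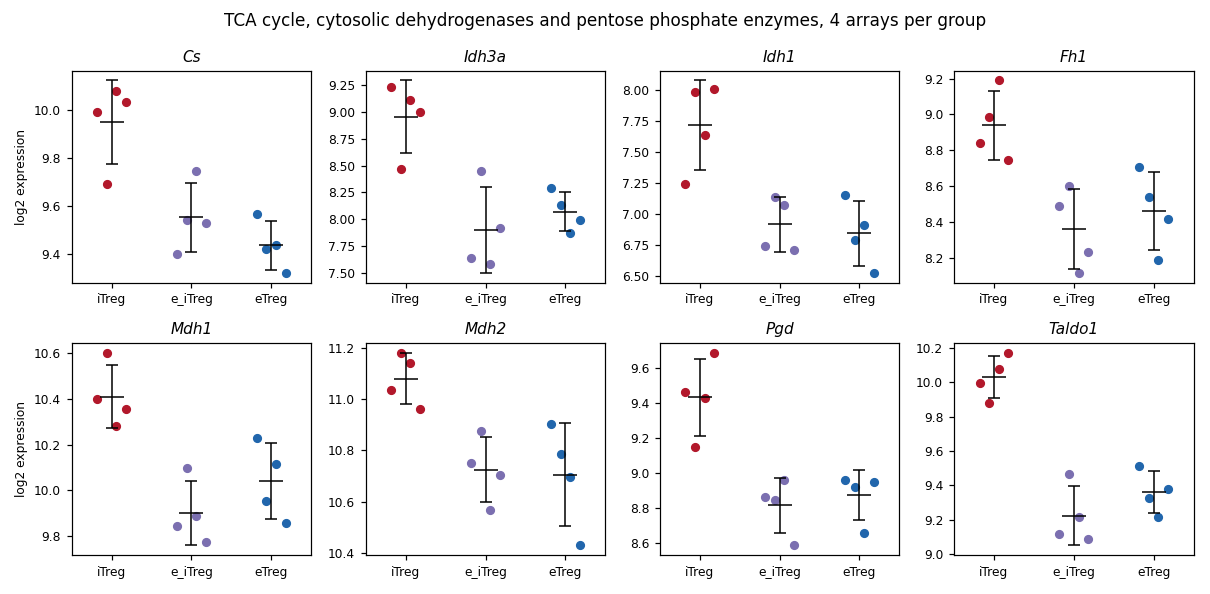
Log2 expression of 6 TCA cycle and related genes and of Pgd and Taldo1 in each array (points) with group mean ± SD (bars), n = 4 arrays per group, each panel with its own axis that does not start at 0. In 7 of the 8 panels every iTreg array is above the other 8, and in the panel of Cs they overlap.

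Further genes of the same pathways were read from lists of isoenzymes, cycle partners and regulators. Of 28 other glycolytic isoenzymes and regulators measured, 2 rose and 2 fell in iTreg minus eTreg, 7.14% in each direction, near the 5.36% and 4.63% of all rows. Pgp, a phosphatase that clears by-products of glycolysis, rose by 0.81 ± 0.17 (adjusted p = 0.00681), and Pgm2, a sugar-phosphate mutase, by 0.51 ± 0.10 (adjusted p = 0.00463). The muscle-type enolase Eno3 fell by 0.63 ± 0.13 (adjusted p = 0.00737) and the ADP-dependent glucokinase Adpgk by 0.38 ± 0.11 (adjusted p = 0.0435). In iTreg minus e_iTreg 2 rose, again Pgp and Pgm2, and 1 fell (7.14% and 3.57%, against 6.49% and 4.75% of all rows). Eno2, the neuronal-type enolase, was the 1 that fell, by 0.44 ± 0.09 (adjusted p = 0.00564).

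Of 29 other pyruvate and TCA cycle genes measured, 4 rose and 2 fell in iTreg minus eTreg (13.8% and 6.90%, against 5.36% and 4.63% of all rows). In iTreg minus e_iTreg 5 rose, Pdhx among them, and 1 fell (17.2% and 3.45%, against 6.49% and 4.75% of all rows). The succinate dehydrogenase subunits Sdhb and Sdhd rose by 0.58 ± 0.10 (adjusted p = 0.00254) and 0.42 ± 0.12 (adjusted p = 0.0303) in iTreg minus eTreg, whereas Sdha and Sdhc were at 0.00 ± 0.12 and 0.18 ± 0.10, not past the threshold. Sdhaf1, an assembly factor of the same complex, had levels of 9.45, 9.80, 9.80 and 9.48 in iTreg, against 10.20, 10.25, 10.49 and 10.33 in e_iTreg and 10.29, 10.40, 10.66 and 10.37 in eTreg. It lay below all other arrays in iTreg and fell by 0.80 ± 0.12 (adjusted p = 0.0012) and by 0.69 ± 0.12 (adjusted p = 0.00247) against eTreg and against e_iTreg. The dicarboxylate carrier Slc25a10 rose by 0.62 ± 0.15 and the mitochondrial aspartate aminotransferase Got2 by 0.43 ± 0.11 in iTreg minus eTreg. Pdpr, a regulatory subunit of the phosphatase that switches pyruvate dehydrogenase back on, fell by 0.50 ± 0.15 (adjusted p = 0.0391). None of 8 other pentose phosphate genes passed limma's test in any comparison, with 1 at an unadjusted p under 0.05 in iTreg minus eTreg. Of all 23521 rows, 2429 were higher and 2674 lower at that rule.

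Of 22 regulators of glucose metabolism 2 rose and 6 fell in iTreg minus eTreg (9.09% and 27.3%, against 5.36% and 4.63% of all rows). In iTreg minus e_iTreg 2 rose and 5 fell (9.09% and 22.7%, against 6.49% and 4.75% of all rows). Hif1a, the hypoxia-inducible activator of glycolytic genes, had levels of 11.13, 10.81, 10.86 and 10.96 in iTreg, against 10.59, 10.65, 10.42 and 10.55 in e_iTreg and 10.63, 10.33, 10.58 and 10.46 in eTreg. It rose by 0.44 ± 0.10 (adjusted p = 0.0125) against eTreg and 0.39 ± 0.10 (adjusted p = 0.0239) against e_iTreg. The kinase Akt1, which promotes glucose uptake, rose by 0.59 ± 0.11 (adjusted p = 0.00387). Myc, another activator of glycolytic genes, fell by 0.40 ± 0.12 (adjusted p = 0.0486) in iTreg minus eTreg, and Arnt, the partner of Hif1a, by 0.41 ± 0.12 (adjusted p = 0.0408). Txnip, which restrains glucose uptake, fell by 0.48 ± 0.14 (adjusted p = 0.0449), Rptor, a subunit of the growth-promoting mTORC1 kinase complex, by 0.49 ± 0.10 (adjusted p = 0.00641), the coactivator Ppargc1b by 0.51 ± 0.10 (adjusted p = 0.00565) and the Myc antagonist Mxd4 by 0.71 ± 0.12 (adjusted p = 0.00233). In iTreg minus e_iTreg, Mlxip, a glucose-sensing transcription factor, fell by 0.43 ± 0.13 (adjusted p = 0.0372) and Arrdc4, a relative of Txnip, by 0.59 ± 0.18 (adjusted p = 0.0435), with -0.41 (adjusted p = 0.052) and -0.50 (adjusted p = 0.0964) against eTreg. Myc and Arnt did not pass in iTreg minus e_iTreg, at -0.36 ± 0.12 (adjusted p = 0.0674) and -0.16 ± 0.12 (adjusted p = 0.401).

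Cell cycle genes were also higher in iTreg. Of 29 measured cell cycle genes 28 rose against eTreg and 28 against e_iTreg (96.6% in each, against 5.36% and 6.49% of all rows). Their mean log2 level was 9.97, 9.57, 9.97 and 9.18 in iTreg, against 8.30, 8.79, 7.56 and 7.31 in e_iTreg and 8.75, 7.86, 7.66 and 7.24 in eTreg. The mean of the 4 lower glycolytic enzymes was 10.71, 10.48, 10.69 and 10.72 in iTreg, against 9.90, 10.20, 9.81 and 9.78 in e_iTreg and 10.14, 9.96, 9.88 and 9.84 in eTreg. In both measures eTreg replicate 1 and e_iTreg replicate 2 were the highest of their groups, while iTreg replicate 4 was lowest of its group in cell cycle genes and highest in the lower glycolytic enzymes. Of the 16 enzymes that rose in iTreg minus eTreg, 15 had their highest eTreg level in replicate 1 and 12 their highest e_iTreg level in replicate 2. Their highest iTreg level was in replicate 4, the array lowest of its group in cell cycle genes, for 8 of the 16. Over all 38 measured enzymes these counts were 22, 19 and 10. The share over all rows was not counted. The part of the cell cycle genes in the results was not tested.

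**Figure D5:**
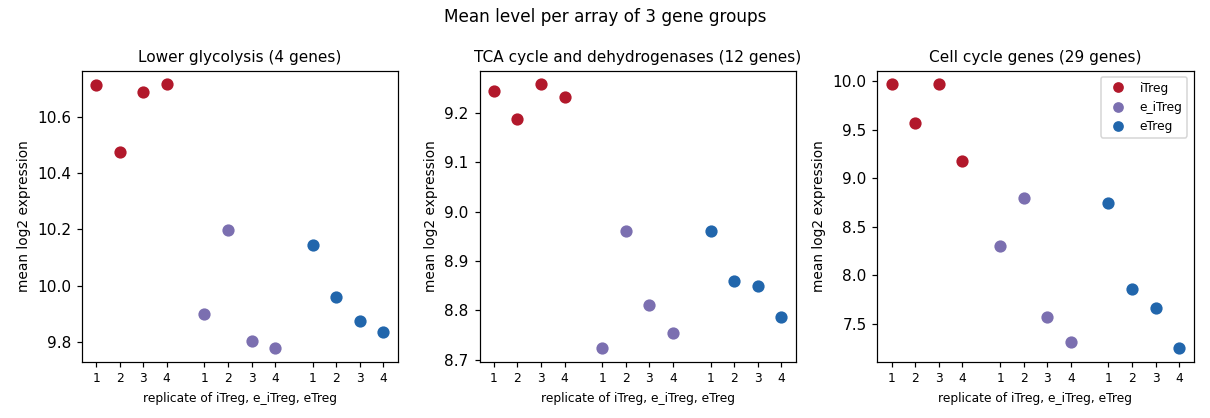
Mean log2 level in each array of the 4 lower glycolytic genes, the 12 genes of the TCA cycle and related dehydrogenases and the 29 cell cycle genes, with the 4 replicates of iTreg (red), e_iTreg (purple) and eTreg (blue) side by side on axes that do not start at 0. In all 3 panels the iTreg arrays are highest, and eTreg replicate 1 and e_iTreg replicate 2 are the highest of their groups.

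Markers of other cells differed between arrays as well. The mean of 16 B cell markers was 7.90 to 8.34 in iTreg, 6.81 to 8.70 in e_iTreg and 6.79 to 8.77 in eTreg. None was past the threshold in limma's test, and 1 had an unadjusted p under 0.05 in iTreg minus eTreg. For the unadjusted counts in this paragraph, 2429 of all 23521 rows were higher and 2674 lower in that comparison. Plasma cell markers (10 genes) were at 7.72 to 9.46 in iTreg, highest in replicate 4, 7.39 to 7.73 in e_iTreg and 7.30 to 7.66 in eTreg. Of them 1 rose in each comparison with iTreg (10%, against 5.36% of all rows for eTreg and 6.49% for e_iTreg). All 10 differences in iTreg minus eTreg were positive, with a median of 0.66, and 6 had an unadjusted p under 0.05 in limma's test. Markers of monocytes, macrophages and dendritic cells (19 genes) were at 7.26 to 8.23 in iTreg, again highest in replicate 4, 6.69 to 7.34 in e_iTreg and 6.76 to 7.29 in eTreg. Against eTreg 4 rose (21.1%) and 8 had an unadjusted p under 0.05 in limma's test. Against e_iTreg 5 rose and 1 fell (26.3% and 5.26%, with 6.49% and 4.75% of all rows). CD8 T and NK cell genes (13, among them granzymes that Treg can express) were at 7.39 to 7.85 in iTreg, 6.56 to 7.25 in e_iTreg and 6.52 to 7.25 in eTreg. Of them 4 rose in each comparison with iTreg (30.8%). The 3 measured erythroid markers had none past the threshold, at 5.77 to 5.82 in iTreg, 5.67 to 6.12 in e_iTreg and 5.70 to 5.82 in eTreg. T cell and Treg genes (9) were at 11.52 to 11.64 in iTreg, 11.53 to 11.65 in e_iTreg and 11.58 to 11.68 in eTreg, with none past the threshold. The part of these cells in the enzyme results was not tested.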

How the data were processed

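Values were the log2 expression values per probe set that the authors deposited for 12 arrays. Per the submitters' processing notes they were made with oligo and RMA, whose versions and settings are not given in the sources used here, and the labels' protocols give 2 rounds of amplification starting from 2 ng of total RNA. The number of arrays limits the precision. Of 41345 rows, 23521 had exactly 1 gene symbol (22180 genes) in the platform annotation, 1814 had several and 16010 had none. Rows with 1 symbol were tested, of which 23328 matched the RefSeq gene table of GRCm38.p6, used for names.

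One linear model with 3 group means was fitted in R 4.3.3 using lmFit and eBayes of limma 3.58.1 (degrees of freedom: 9 residual, 5.78 prior), two-sided, with Benjamini-Hochberg adjustment over all rows. The script was tested on simulated data with the spread of each row in these arrays. There 92.8% of changes of 1 log2 unit and 39.2% of changes of 0.5 passed in iTreg minus eTreg. Far fewer rows were changed there than passed in these arrays. The adjustment was therefore stricter in the simulation, and these shares need not hold for these data. A change of about 0.5 can still be missed. Differences between isoenzymes were tested within arrays with scipy 1.17.1 (exact permutation). The members, lists and alternatives were chosen with earlier results of these data known. Values in every array are given for members past the threshold with a difference of at least 0.5 in a comparison with iTreg, and for the leading member of a role with none. Ldha, Sdhaf1 and Hif1a were added after their values were seen. Genes outside the members are named where they passed the threshold, with the isoenzymes or partner subunits Pdk4, Pgam2, Pklr, Sdha and Sdhc, which did not, and Foxp3 as a check of the labels.

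Alternatives were other normalizations, filters on dim probe sets, error models, array weights, the replicate number as a block, thresholds, leaving out each array, and leaving out arrays low in B cell markers or with the signal of 1 sex. The fit without the 3 arrays with the signal of 1 sex was chosen after seeing the data.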

Additional observations from a re-analysis of the deposited data

Results flagged for a closer look

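In 114 sets of 4 arrays (38 genes in 3 groups), 4 held an array far from the other 3 by Dixon's test, where chance flags about 1 in 20. The Tpi1 level of iTreg replicate 2 was 10.19, with the remaining iTreg arrays at 10.60 to 10.68, and it was above every array of the other groups. Ldha was at 8.29 in eTreg replicate 1 against 8.01 to 8.05. Idh2 was at 7.23 in e_iTreg replicate 1 against 7.52 to 7.55. Pgd was at 8.66 in eTreg replicate 3 against 8.92 to 8.96.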

How the results depend on the processing

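Of the 35 calls of single enzymes in the comparisons with iTreg, 9 held under every alternative run and none changed direction while called. Those that held were Tpi1 and Pgam1 against eTreg, and Tpi1, Pgk1, Pgam1, Pdk3, Idh3a, Pgd and Taldo1 against e_iTreg. The fold rule drops every smaller difference by construction, and the looser threshold can drop no call. Leaving out the array of the less frequent sex signal is the same fit as leaving out e_iTreg replicate 4. In iTreg minus eTreg, leaving out 1 array at a time gave 11 to 16 genes that rose and 2 to 3 that fell. Of all rows 3.55% to 5.54% rose and 2.78% to 4.89% fell in these fits. In iTreg minus e_iTreg 12 to 15 genes rose and 1 to 2 fell, against 4.33% to 6.96% and 2.54% to 5.23% of all rows. With a fold of at least 1.5 added, 6 rose and 0 fell in iTreg minus eTreg and 8 rose and 0 fell in iTreg minus e_iTreg, against 2.94% and 1.69%, and 3.45% and 1.31%, of all rows under that rule. With the 3 arrays of lowest B cell marker level left out the counts were 2 and 0, and 9 and 1. Without the 3 arrays with the signal of 1 sex they were 6 and 0, and 8 and 0. In iTreg minus e_iTreg, 1 gene fell after median centring, with all rows tested, with the compared groups alone fitted and without the array of the less frequent sex signal. Of all rows 2.19%, 2.48%, 3.18% and 2.54% fell in these settings, in that order. The cause was not tested, except that these settings hold fewer samples, more rows or a stricter rule where so named. With the replicate number as a block, 14 rose and 3 fell in iTreg minus eTreg, against 5.12% and 4.34% of all rows. In iTreg minus e_iTreg 14 rose and 1 fell under the block, against 6.12% and 4.06%. Same-numbered arrays correlated at -0.152 to 0.238 in their deviations from group means. In e_iTreg minus eTreg all 4 correlations were positive, at 0.067 to 0.238, and not every pair was over 0.1 in any comparison, so the labels and this check do not establish a pairing. In e_iTreg minus eTreg no enzyme passed limma's test under any alternative. The pairs of isoenzymes had 0 past the adjusted threshold with the mean of probe sets and without each array in turn, while median centring cannot move a difference within an array. A comparison that lost an array, 3 against 4, cannot pass this exact test. The comparisons that kept 4 against 4 are then too few for any to pass after adjustment over all 48. Leaving out an array therefore could not give another count, and these runs say nothing about stability.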
